A study of Rattus norvegicus with 10 samples.

Results

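The collagen chain genes were followed in RNA-seq libraries of prefrontal cortex from male Sprague-Dawley rats, from 5 controls and 5 animals exposed to early life stress (ELS). ELS animals were raised under limited nesting, a rearing condition with scarce nest material, from postnatal day 2 to 9, and tissue of both groups was collected at postnatal day 91. Control and ELS rats thus shared strain, sex, age and tissue, and the labels name no other treatment. The labels do not tell which rats shared a litter, so each p-value rests on the spread among these 10 samples, whose litters may be shared. The members are all rows whose trimmed symbol is Col, a number, a and a number, which gave 35 of 16041 genes in the table. They were sorted by the structure and known role of their chains into 9 fibrillar, 7 basement membrane and 3 neuronal collagens, 7 fibril-associated chains, 5 beaded filament and related chains, 2 short chain network collagens and 2 others. Col1a2, Col2a1 and Col15a1 are not analysed here.

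Collagens are built from chains with repeats of glycine followed by a pair of other residues, and each molecule is a helix of 3 chains. Fibrillar collagens pack into the cross-linked fibres of connective tissue, which in brain lie mostly in the meninges and around larger vessels. Basement membrane collagens form sheets, and type IV collagen is the scaffold of the vascular and pial basement membranes. A few collagens are made by neurons themselves, among them the transmembrane chain Col25a1 and the fibril-associated chain Col19a1, which is known for its part in the formation of inhibitory synapses.

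All levels are RPKM, reads scaled by the length of the gene model and the read total of the library, so they can be compared between genes. Fold changes are differences, ELS minus control, between mean log2(RPKM + 0.1) values, a measure that shrinks the change of rarer genes, and are given with their standard error (SE). They and their p-values come from limma fitted across all genes, with p-values adjusted by Benjamini-Hochberg and called under 0.05. Of the 35 members, 31 reached the abundance floor of 0.5 RPKM in at least 5 libraries and were tested. The other 4, Col4a6, Col14a1, Col23a1 and Col28a1, had mean levels of 0.470, 0.451, 0.485 and 0.434 RPKM over the 10 libraries.

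Library totals were 18838898 to 22311136 reads, and single collagen genes drew from 8 reads (Col8a1 in control replicate 4) to 4992 reads (Col11a2 in the same library). Neuron markers were abundant in every library, with Snap25 at 652, 616, 669.9, 542 and 694 RPKM in the controls and 683, 723, 875, 845 and 768 in ELS. One control library stood apart. Over the 14642 genes tested, control replicate 4 was below the other 9 libraries in 23.8% and above them in 23.8%. The summed level of 13 meningeal fibroblast markers was 31.5 RPKM in that library, 69.5 to 123.4 RPKM in the other controls and 57.9 to 81.6 RPKM in ELS. The choroid plexus marker Ttr was at 31.1 RPKM there and at 0.194 to 1.96 RPKM in the other controls. Kcne2, the other choroid plexus marker with a row, was at 1.75 RPKM there. It was at 1.06 to 1.51 RPKM in the other controls and 0.915 to 1.77 RPKM in ELS. The summed level of 6 oligodendrocyte markers was 2181 RPKM in control replicate 4, 1050 to 1355 RPKM in the other controls and 790.5 to 1033 RPKM in ELS. Results that rest on this library are given with and without it.

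Fibrillar chains made up 44.3% of the summed collagen level, basement membrane chains 17.5%, beaded filament and related chains 16.0%, fibril-associated chains 13.3% and neuronal chains 6.85%. The 5 highest members by mean over the 10 libraries were Col11a2 at 29.7 RPKM, Col6a1 at 20.4, Col4a2 at 14.1, Col5a2 at 9.50 and Col27a1 at 9.10. Col25a1 followed at 8.79 RPKM, and the classic fibre-forming chains Col3a1 and Col1a1 were at 4.99 and 4.76. The fibrillar class had the highest median of its members' means, 5.13 RPKM, against 2.76 RPKM for basement membrane and 2.54 RPKM for neuronal collagens, but the ranges of members were 3.07 to 29.7, 0.470 to 14.1 and 0.485 to 8.79 RPKM and thus overlapped. Spread between libraries was narrowest in the basement membrane class. The median coefficient of variation over the 10 libraries was 12.5% there, 22.5% in the fibrillar class and 42.3% in the neuronal class. The neuronal median is the value of Col25a1, and Col19a1 and Col23a1 were at 73.2% and 18.6%. Col25a1 was at 18.9 RPKM in control replicate 4 and at 5.76 to 9.26 RPKM in the other libraries. These coefficients were not computed without control replicate 4.

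**Figure D1:**
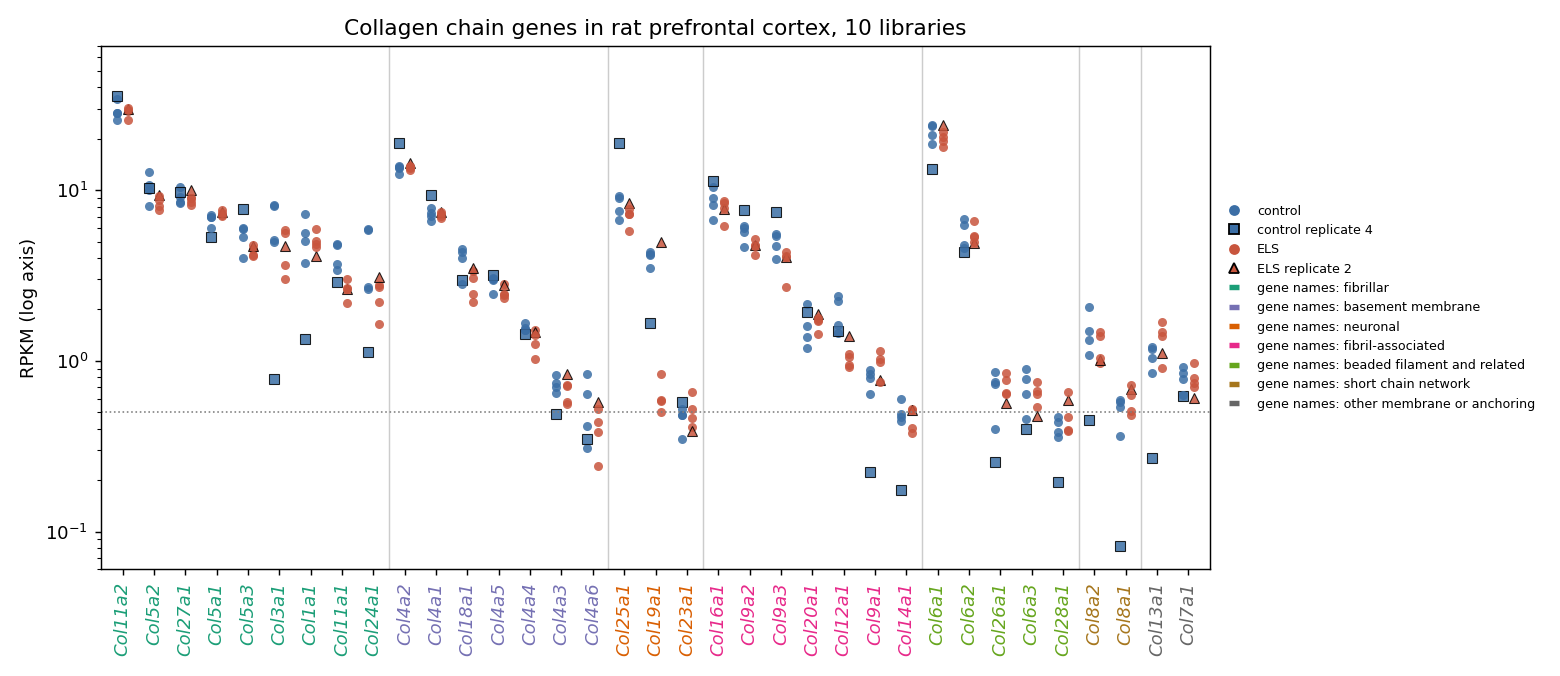
RPKM (vertical, log axis) of the 35 collagen chain genes (horizontal, grouped by class and ordered by mean) in 5 control (blue) and 5 ELS (red) libraries, with a square for control replicate 4, a triangle for ELS replicate 2 and a dotted line at 0.5 RPKM. Col11a2 and Col6a1 lie on top, and the square lies far below the other points in Col3a1, Col1a1 and Col24a1 and above them in Col25a1.

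Several collagen genes lie next to each other in the RefSeq assembly GRCr8, each as the next protein-coding gene of the other. These are Col4a2 with Col4a1, Col4a4 with Col4a3, Col6a1 with Col6a2, Col3a1 with Col5a2 and Col9a1 with Col19a1. RefSeq start windows of 300 bases, 250 before and 50 after the start, were found for 28 of the 35 genes. The stretches below are shown for the type IV pairs because they are transcribed away from each other, for Col11a1 as the fibrillar chain with the lowest p between the groups, and for Col5a2 because its ratio to Col5a1 did not overlap between them. Each runs 5′ to 3′, with capitals for motif matches on either strand. The motifs were the TATA box, searched as TATAAA, the CCAAT box, searched by those letters, and the GC box, searched as GGGCGG, and the printed matches do not overlap.
Col4a2-Col4a1, the 76 bases between the 2 starts (GRCr8, chr16:84885521-84885596, plus strand): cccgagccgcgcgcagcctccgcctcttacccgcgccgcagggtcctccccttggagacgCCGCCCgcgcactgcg
Col4a3, upstream 250 bases (GRCr8, chr9:91323740-91323989, plus strand): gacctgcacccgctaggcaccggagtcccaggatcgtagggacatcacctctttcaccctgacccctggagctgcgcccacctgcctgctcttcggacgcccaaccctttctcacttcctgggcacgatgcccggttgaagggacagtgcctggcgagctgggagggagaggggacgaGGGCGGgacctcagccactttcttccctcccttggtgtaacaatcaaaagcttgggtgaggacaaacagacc
Col11a1, upstream 250 bases (GRCr8, chr2:204508886-204509135, plus strand): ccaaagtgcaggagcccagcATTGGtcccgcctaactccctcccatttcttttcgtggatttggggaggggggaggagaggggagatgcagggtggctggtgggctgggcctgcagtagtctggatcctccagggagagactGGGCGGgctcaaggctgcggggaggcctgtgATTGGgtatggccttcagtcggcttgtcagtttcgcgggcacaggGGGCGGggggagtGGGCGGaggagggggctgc
Col5a2, upstream 250 bases (GRCr8, chr9:55090152-55090401, minus strand): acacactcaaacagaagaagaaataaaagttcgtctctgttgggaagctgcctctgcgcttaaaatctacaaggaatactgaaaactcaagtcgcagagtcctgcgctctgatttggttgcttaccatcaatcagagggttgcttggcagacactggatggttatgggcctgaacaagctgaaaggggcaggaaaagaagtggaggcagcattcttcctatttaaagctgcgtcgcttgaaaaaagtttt

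The shared type IV stretch and the Col4a3 stretch each held 1 GC box, the Col11a1 stretch held 3 GC boxes and 2 CCAAT boxes, and the Col5a2 stretch held 0 of the 3 motifs. Over the 300-base windows, 63.3% of the 30 windows of collagen genes held a GC box, 20% a CCAAT box and 3.33% a TATA box, against 33.1%, 37.5% and 14.2% of all 33469 windows. These are matches of letters, with no test, and say nothing of binding.

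Between the groups, none of the 31 tested collagen genes passed the threshold with all 10 libraries weighted equally, as was so for all genes tested (0%, 0 of 14642). At an unadjusted p under 0.05, 7 members were lower in ELS (22.6% of the 31) and 1 was higher, against 10.3% lower and 10.1% higher over all genes tested. The 7 lower members were Col12a1, Col11a1, Col19a1, Col9a2, Col9a3, Col5a3 and Col5a2, and the higher one was Col5a1. The median log2 fold change was -0.06 over the 31 members and 0.0037 over all genes, and 20 of the 31 had lower mean log2 values in ELS, against 49.4% of all genes. By limma-voom on recovered reads 0 members passed, with 8 lower and 1 higher at an unadjusted p under 0.05. Without control replicate 4 the counts were 8 lower and 0 higher, against 10.6% and 11.1% of all genes, and the median over the members was -0.13. The summed level of the 9 fibrillar genes was 79.9 ± 8.38 RPKM in controls against 72.9 ± 2.23 under ELS, that of the 7 basement membrane genes 31.5 ± 3.21 against 28.9 ± 1.45, and that of the 3 neuronal genes 14.3 ± 4.06 against 9.27 ± 2.63 (SD, 5 libraries each). The ranges of all 3 sums overlapped between the groups. The neuronal sum was 21.2 RPKM in control replicate 4, 10.5 to 13.9 in the other controls and 6.91 to 13.8 in ELS. In the same order the basement membrane sum was 36.7, 27.9 to 31.3 and 27.5 to 31.2 RPKM. Beside these, 7 of 7 neuron markers had higher mean log2 values in ELS, and 6 of 6 oligodendrocyte, 5 of 5 oligodendrocyte precursor, 5 of 5 astrocyte and 5 of 5 microglia markers and 4 of 4 rows of blood cell markers had lower ones, and the part of these cells in the collagen values was not tested. In bulk tissue, fewer cells of a type and less RNA per cell cannot be told apart.

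Which genes passed hung on ELS replicate 2 and control replicate 4. Without ELS replicate 2, Col19a1 and Col12a1 passed as lower, against 2.1% lower and 0.929% higher of all genes. Without control replicate 4 alone 0 passed. Without both libraries 3 members passed, Col19a1, Col12a1 and Col11a1, all lower (4.12% lower and 3.5% higher of all genes). With all 10 libraries, each was also given a quality weight, 0.185 for control replicate 4 and 0.728 for ELS replicate 2. Col19a1, Col12a1 and Col11a1 then passed as lower (3.36% lower and 2.55% higher of all genes). The labels give no ground for leaving out ELS replicate 2. It was the highest ELS library for Col19a1 and Col12a1, so leaving it out widens those differences by itself. The fits without it are thus no independent support for these genes.

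**Figure D2:**
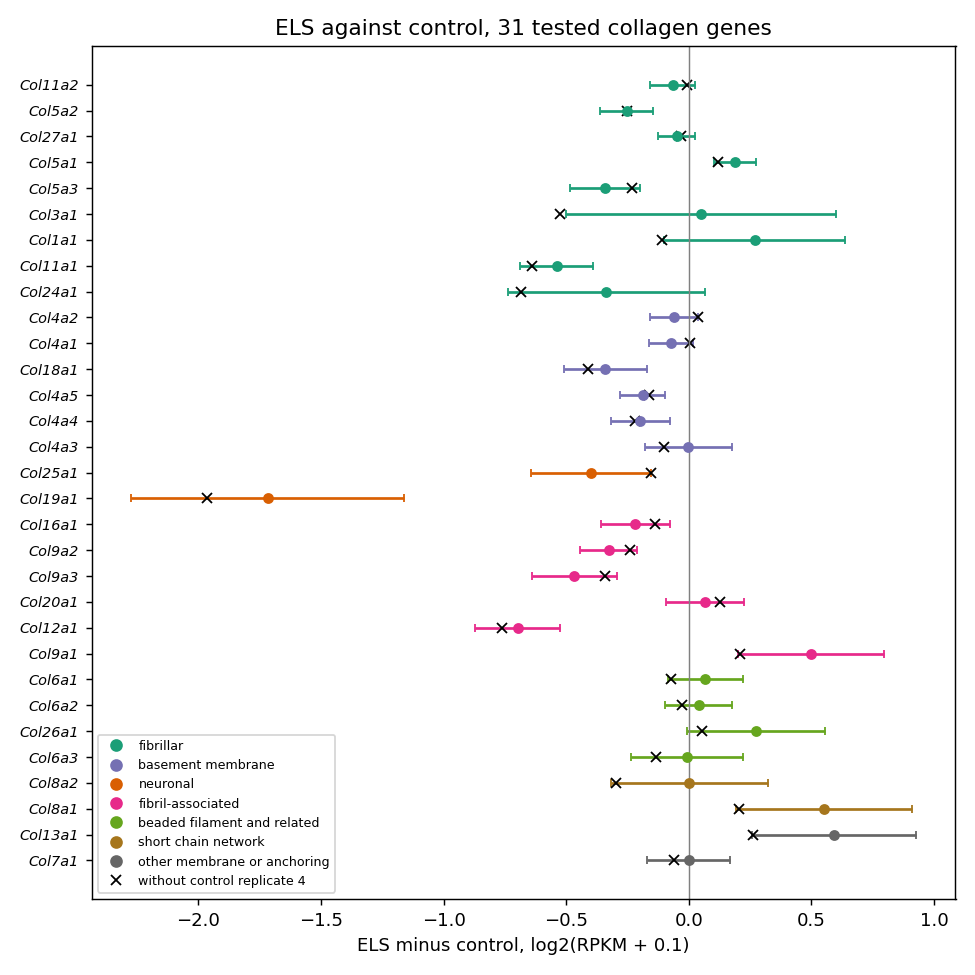
Log2 fold change of ELS minus control (horizontal, log2(RPKM + 0.1) scale) with its SE for the 31 tested collagen genes, coloured by class, with crosses for the values without control replicate 4. Col19a1 lies farthest to the left at -1.72, and the cross and the point of Col3a1 and of Col1a1 lie on opposite sides of 0.

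Among the neuronal collagens, Col19a1 (ENSRNOG00000012759) had the widest difference of all 31 members. It was at 4.20, 4.35, 3.48, 1.67 and 4.20 RPKM in control replicates 1 to 5 and 0.843, 4.995, 0.499, 0.590 and 0.580 in ELS replicates 1 to 5. ELS replicates 1, 3, 4 and 5 all lay below every control, whereas ELS replicate 2 was the highest of all 10 libraries, and control replicate 4 was the lowest control. Such an order, with these 4 ELS libraries below every control and ELS replicate 2 at or above the lowest one, was found in 580 (3.96%) of the genes tested. The log2 fold change was -1.72 ± 0.56 (SE; limma, adjusted p = 0.155). It was -2.28 without ELS replicate 2 (limma, adjusted p = 0.0102). Leaving out control replicate 4 instead gave -1.96 (adjusted p = 0.122).

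Col25a1 (ENSRNOG00000050706), a transmembrane collagen whose shed part was first found in amyloid plaques, was at 9.26, 7.55, 6.69, 18.9 and 9.01 RPKM in control replicates 1 to 5 and 7.26, 8.41, 5.76, 7.21 and 7.78 in ELS replicates 1 to 5. Control replicate 4 held more than any other library, and the remaining controls and the ELS libraries overlapped. The log2 fold change was -0.40 ± 0.24 (adjusted p = 0.377), or -0.15 without control replicate 4. Col23a1, another transmembrane chain, was below the abundance floor, at 0.350 to 0.574 RPKM in controls and 0.388 to 0.655 in ELS. Thus the class median of -1.06 came from only 2 tested genes, with Col19a1 and Col25a1 far apart. The summed level of the 7 neuron markers was 1369 to 1559 RPKM in controls and 1625 to 1853 RPKM in ELS, above every control. That sum rested mostly on Snap25, Slc17a7 and Syt1, with means of 707, 385 and 344 RPKM over the 10 libraries. Its part in the values of Col19a1 and Col25a1 was not tested.

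**Figure D3:**
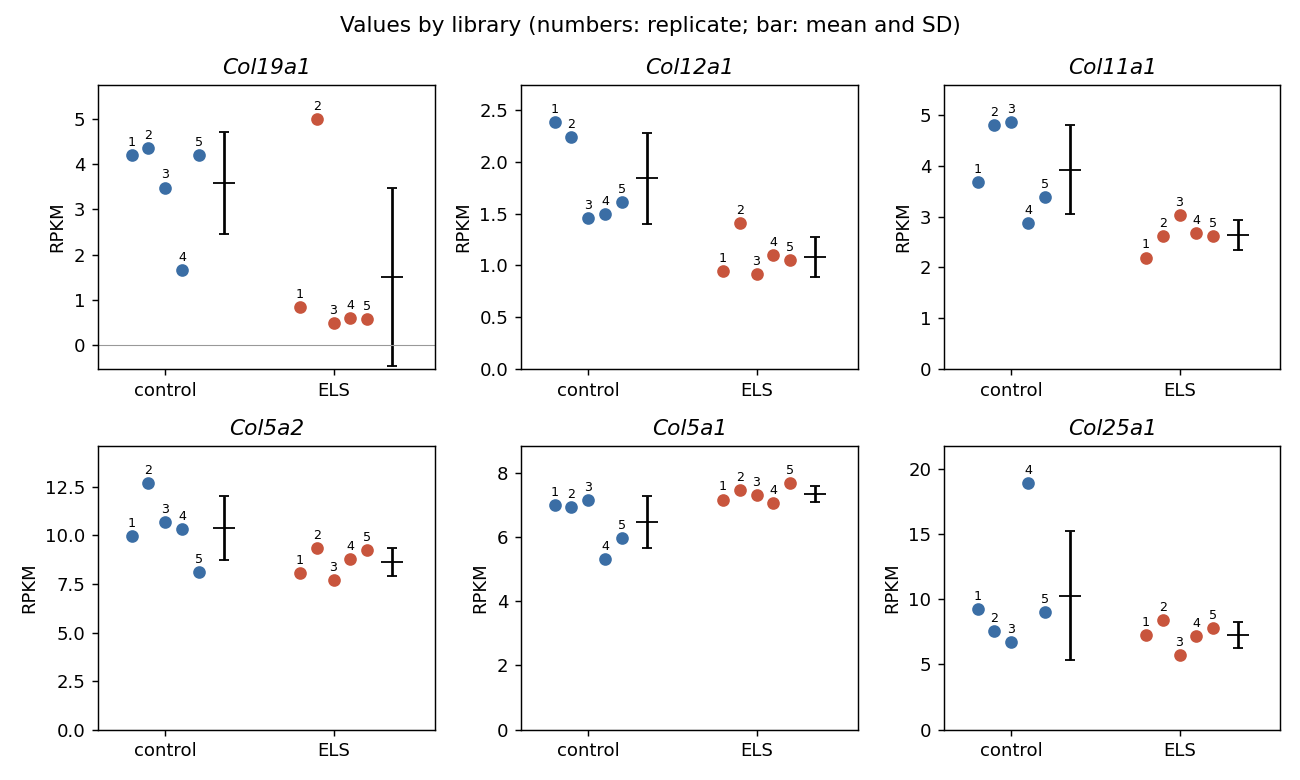
RPKM (vertical) of 6 collagen genes in the control (blue) and ELS (red) libraries, each point labelled with its replicate number, with a bar for the mean and SD of 5 libraries. ELS replicate 2 stands at 4.995 RPKM for Col19a1, with the other 4 ELS points at or below 0.843, and control replicate 4 stands alone for Col25a1 at 18.9.

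The differences of the fibrillar collagens had both signs. Of the 9 members, 6 had lower and 3 had higher mean log2 values in ELS, 3 were lower and 1 was higher at an unadjusted p under 0.05 (10.3% and 10.1% of all genes), and 0 passed the threshold. The class median log2 fold change was -0.07, and -0.23 without control replicate 4, where 8 of 9 members were lower and Col3a1, Col11a1 and Col24a1 had an unadjusted p under 0.05.

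Col11a1 (ENSRNOG00000023148), a chain of type XI collagen that sits inside cartilage fibrils and sets their diameter, was at 3.67, 4.80, 4.86, 2.88 and 3.39 RPKM in control replicates 1 to 5 and 2.19, 2.62, 3.02, 2.68 and 2.62 in ELS replicates 1 to 5. The groups overlapped only through control replicate 4 and ELS replicate 3. The difference was -0.54 ± 0.15 on the log2 scale (SE; limma, adjusted p = 0.133), and without both control replicate 4 and ELS replicate 2 it was -0.64 (adjusted p = 0.0304). Its partner chain Col11a2, the most abundant collagen transcript here, was at 28.4, 28.4, 34.4, 35.5 and 25.6 RPKM in control replicates 1 to 5 and 29.2, 29.8, 30.3, 25.7 and 29.6 in ELS replicates 1 to 5. The groups overlapped almost fully, with a log2 fold change of -0.065 ± 0.091 (adjusted p = 0.712).

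Type V collagen, which starts fibrils of type I and limits their width, had differences of both signs. Col5a1 (ENSRNOG00000008749) was at 6.99, 6.92, 7.14, 5.30 and 5.97 RPKM in control replicates 1 to 5 and 7.16, 7.47, 7.32, 7.06 and 7.69 in ELS replicates 1 to 5. All ELS libraries but ELS replicate 4 lay above every control, and control replicates 4 and 5 were lowest (log2 fold change 0.19 ± 0.084, adjusted p = 0.241, or 0.12 on the log2 scale without control replicate 4). Col5a2 (ENSRNOG00000003736) was at 9.98, 12.7, 10.7, 10.3 and 8.12 RPKM in control replicates 1 to 5 and 8.08, 9.34, 7.68, 8.78 and 9.24 in ELS replicates 1 to 5. It was lower in ELS on average, with control replicate 5 inside the ELS range (log2 fold change -0.25 ± 0.11, adjusted p = 0.223). Col5a3, the third chain of the type, was at 5.91, 6.03, 5.33, 7.71 and 3.997 RPKM in control replicates 1 to 5 and 4.55, 4.72, 4.78, 4.15 and 4.11 in ELS replicates 1 to 5. Control replicate 4 was the highest and control replicate 5 the lowest of the 10 libraries, and the log2 fold change of -0.34 ± 0.14 (adjusted p = 0.220) was -0.23 without control replicate 4. Without that library none of the 3 type V genes had an unadjusted p under 0.05.

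The classic fibre-forming chains turned on control replicate 4. Col3a1 (ENSRNOG00000003357), which gives pliable fibres to vessel walls and meninges, was at 8.07, 8.21, 4.97, 0.781 and 5.09 RPKM in control replicates 1 to 5 and 3.01, 4.69, 3.64, 5.58 and 5.83 in ELS replicates 1 to 5. Col1a1 (ENSRNOG00000003897), the main chain of type I collagen, was at 7.27, 5.64, 3.76, 1.34 and 5.03 RPKM in control replicates 1 to 5 and 5.89, 4.11, 4.87, 5.01 and 4.67 in ELS replicates 1 to 5. In both genes control replicate 4 was far below the other 9 libraries, and those overlapped between groups. Meningeal fibroblast markers were likewise low in that library (31.5 RPKM in sum), and between the groups 7 of 12 had lower mean log2 values in ELS (median difference -0.04), and 0 had an unadjusted p under 0.05. Without that library 12 of 12 were lower, with a median of -0.44, and 4 had an unadjusted p under 0.05 (10.6% of all genes lower). Their part in the values of Col3a1 and Col1a1 was not tested. The log2 fold change of Col3a1 was 0.051 with all libraries and -0.53 without control replicate 4 (adjusted p = 0.967 and 0.230), and that of Col1a1 went from 0.27 to -0.11 (adjusted p = 0.709 and 0.739).

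The minor fibrillar chains differed in spread. Col27a1 was at 8.55, 9.16, 10.4, 9.76 and 8.42 RPKM in control replicates 1 to 5 and 8.96, 10.01, 8.22, 8.54 and 8.96 in ELS replicates 1 to 5. It varied least of all members, with a coefficient of variation of 8.15%, and overlapped between groups (log2 fold change -0.049 ± 0.075, adjusted p = 0.737). Col24a1 was at 2.70, 5.82, 5.91, 1.13 and 2.65 RPKM in control replicates 1 to 5 and 2.78, 3.09, 2.22, 2.72 and 1.65 in ELS replicates 1 to 5. Control replicates 2 and 3 were about level and highest, control replicate 4 was lowest, and the ELS libraries lay between (log2 fold change -0.34 ± 0.40, adjusted p = 0.665). The value of Col24a1 was -0.68 without control replicate 4 (adjusted p = 0.212).

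All 6 tested basement membrane members had lower mean log2 values in ELS, with a class median of -0.13, but 0 had an unadjusted p under 0.05. Without control replicate 4 the median was also -0.13, with 4 of 6 lower, and 1 member, Col18a1, had an unadjusted p under 0.05. Col4a1 (ENSRNOG00000016281) and Col4a2 (ENSRNOG00000023972) encode the chains of the most widespread type IV network. Col4a1 was at 7.33, 6.56, 7.82, 9.43 and 7.08 RPKM in control replicates 1 to 5 and 7.06, 7.47, 7.44, 6.86 and 7.23 in ELS replicates 1 to 5. Col4a2 was at 13.5, 13.8, 13.8, 18.8 and 12.4 RPKM in control replicates 1 to 5 and 13.2, 14.5, 13.4, 13.8 and 13.6 in ELS replicates 1 to 5. Both were highest in control replicate 4 and overlapped between the groups otherwise. Their log2 fold changes were -0.072 ± 0.088 and -0.059 ± 0.097 (adjusted p = 0.670 and 0.760), and 0.0051 and 0.040 without control replicate 4.

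The other type IV chains are best known from the kidney filter. Col4a5, an X-linked chain, was at 3.07, 2.997, 2.47, 3.18 and 3.03 RPKM in control replicates 1 to 5 and 2.83, 2.79, 2.35, 2.42 and 2.47 in ELS replicates 1 to 5. Control replicate 3 lay among the ELS libraries and the other controls lay above every ELS library (log2 fold change -0.19 ± 0.093, adjusted p = 0.280). Col4a4 was at 1.66, 1.56, 1.52, 1.43 and 1.51 RPKM in control replicates 1 to 5 and 1.51, 1.48, 1.02, 1.26 and 1.42 in ELS replicates 1 to 5. ELS replicates 3, 4 and 5 were below every control, and the other 2 ELS libraries were inside the control range (log2 fold change -0.20 ± 0.12, adjusted p = 0.380). Col4a3 was at 0.704, 0.741, 0.831, 0.490 and 0.647 RPKM in control replicates 1 to 5 and 0.558, 0.835, 0.574, 0.714 and 0.718 in ELS replicates 1 to 5. No group difference was seen beyond the spread (log2 fold change -0.0018, SE 0.18, adjusted p = 0.996). Col18a1 (ENSRNOG00000001229), whose cleaved end is the vessel growth inhibitor endostatin, was at 4.01, 4.35, 4.53, 2.99 and 2.81 RPKM in control replicates 1 to 5 and 3.37, 3.49, 2.47, 2.23 and 3.04 in ELS replicates 1 to 5. ELS replicates 3 and 4 were lowest, and control replicates 4 and 5 lay among the ELS libraries (log2 fold change -0.34 ± 0.17, adjusted p = 0.283).

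Of the vascular markers, 7 of 8 endothelial and 7 of 7 pericyte genes had lower mean log2 values in ELS, and 0 of either list had an unadjusted p under 0.05. When control replicate 4 was left out, 1 endothelial and 2 pericyte markers were lower at an unadjusted p under 0.05 (10.6% of all genes). The part of these cells in the basement membrane values was not tested. The summed level of 8 endothelial markers was 87.5 RPKM in control replicate 4, 106.7 to 109.6 in the other controls and 89.7 to 112.2 in ELS, and that of 7 pericyte markers was 61.9, 70.6 to 78.2 and 63.0 to 72.8 RPKM. Control replicate 4 was below every other library in both sums. Gene by gene, it was the lowest library for 4 of 8 endothelial and 1 of 7 pericyte markers, against 23.8% of all genes.

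Among fibril-associated collagens, which coat fibrils and have interrupted helices, Col12a1 (ENSRNOG00000058470) had the lowest p of all members, ranked 217 among the 14642 genes tested. Col12a1 was at 2.39, 2.24, 1.46, 1.501 and 1.62 RPKM in control replicates 1 to 5 and 0.943, 1.41, 0.920, 1.10 and 1.06 in ELS replicates 1 to 5. It was the only one of the 31 whose 5 ELS libraries all lay below every control, an order seen in 2.6% of all genes tested, and for 0 members did all ELS libraries lie above every control, against 3.08% of all genes. ELS replicate 2 was the closest to the controls. The log2 fold change was -0.70 ± 0.17 (SE; limma, adjusted p = 0.133), and the adjusted p ran from 0.0430 without ELS replicate 2 to 0.294 when each library was left out in turn.

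Type IX collagen, known from cartilage, came next. Col9a2 was at 5.996, 6.16, 5.70, 7.62 and 4.63 RPKM in control replicates 1 to 5 and 4.77, 4.78, 4.72, 4.19 and 5.21 in ELS replicates 1 to 5. Col9a3 was at 3.96, 5.54, 5.36, 7.49 and 4.73 RPKM in control replicates 1 to 5 and 4.08, 4.06, 4.32, 2.71 and 4.13 in ELS replicates 1 to 5. In both genes control replicate 4 was the highest library. Control replicate 5 lay inside the ELS range of Col9a2, and control replicate 1 inside that of Col9a3. Their log2 fold changes were -0.33 ± 0.12 and -0.47 ± 0.17 (adjusted p = 0.171 and 0.182), and -0.24 and -0.34 without control replicate 4. The third chain, Col9a1, had a value of the other sign, 0.50 ± 0.30 (adjusted p = 0.363), or 0.21 without control replicate 4, and was at 0.224 RPKM in control replicate 4 against 0.641 to 0.882 in the other controls and 0.755 to 1.14 in ELS. Col16a1 was at 8.18, 9.01, 10.4, 11.3 and 6.71 RPKM in control replicates 1 to 5 and 8.41, 7.71, 8.60, 6.16 and 7.91 in ELS replicates 1 to 5. Its groups overlapped (log2 fold change -0.22 ± 0.14, adjusted p = 0.404, or -0.14 without control replicate 4, adjusted p = 0.582). The 9 members highest in control replicate 4 were Col4a1, Col4a2, Col4a5, Col5a3, Col9a2, Col9a3, Col11a2, Col16a1 and Col25a1. Each of them had a lower mean log2 value in ELS, which a highest control library favours by itself. Without control replicate 4, Col4a1 and Col4a2 were higher in ELS (0.0051 and 0.040) and Col11a2 was at -0.0075. The rest of these members stayed lower. All 6 oligodendrocyte markers and 4 of 5 astrocyte markers were also highest in that library, against 23.8% of all genes. Both lists were lower in ELS, with median log2 fold changes of -0.49 and -0.20, or -0.35 and -0.22 without control replicate 4. At an unadjusted p under 0.05, 6 of 6 and 4 of 5 were lower, against 10.3% of all genes. The part of these cells in the collagen values was not tested.

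Of the beaded filament chains, Col6a1 was at 24.0, 18.5, 23.6, 13.4 and 21.0 RPKM in control replicates 1 to 5 and 20.4, 24.3, 17.8, 21.8 and 19.4 in ELS replicates 1 to 5. Col6a2 was at 6.26, 6.74, 4.75, 4.33 and 4.58 RPKM in control replicates 1 to 5 and 6.64, 4.88, 5.30, 5.37 and 4.97 in ELS replicates 1 to 5. Control replicate 4 was the lowest library for each, and the remaining libraries overlapped (log2 fold changes 0.068 ± 0.15 and 0.041 ± 0.14, adjusted p = 0.830 and 0.890). Col6a3, the third chain of type VI microfibrils, and Col26a1 were at 0.625 and 0.647 RPKM on average, with adjusted p-values of 0.990 and 0.610. Rarer members showed the same low control library. Col8a1 was at 0.587, 0.534, 0.361, 0.0828 and 0.575 RPKM in control replicates 1 to 5 and 0.506, 0.686, 0.482, 0.725 and 0.628 in ELS replicates 1 to 5. Col8a2, its partner in short chain networks, was at 1.504, 2.08, 1.32, 0.449 and 1.08 RPKM in control replicates 1 to 5 and 0.972, 1.01, 1.04, 1.48 and 1.41 in ELS replicates 1 to 5. Col13a1, a transmembrane chain of the neuromuscular junction, was at 1.18, 1.04, 0.853, 0.270 and 1.204 RPKM in control replicates 1 to 5 and 1.48, 1.12, 1.68, 0.913 and 1.40 in ELS replicates 1 to 5. Control replicate 4 was lowest in each of the 3, and their adjusted p-values were 0.406, 0.997 and 0.340. Their log2 fold changes were 0.55, 0.0025 and 0.59 with that library and 0.20, -0.30 and 0.26 without it. Col7a1, the anchoring fibril chain of skin, was at 0.784, 0.920, 0.847, 0.626 and 0.632 RPKM in control replicates 1 to 5 and 0.968, 0.602, 0.797, 0.737 and 0.704 in ELS replicates 1 to 5, with overlapping groups (adjusted p = 0.999), and Col20a1, a fibril-associated chain, had means of 1.66 and 1.71 RPKM for control and ELS (adjusted p = 0.838).

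Control replicate 4 split the collagens. It was the lowest of the 10 libraries for 13 of the 31 tested members and the highest for 9, against 23.8% and 23.8% of all genes. Relative to the mean of the other 4 controls on the log2(RPKM + 0.1) scale, Col3a1 differed by -2.88, Col1a1 by -1.90, Col24a1 by -1.73, Col8a1 by -1.73 and Col13a1 by -1.65. On the other side Col25a1 differed by 1.22, Col9a3 by 0.61, Col5a3 by 0.55 and Col4a2 by 0.50. All 4 tested beaded filament members were lowest in this library, and so were 4 of 9 fibrillar and 1 of 6 basement membrane members. By the same measure the median of the 12 tested meningeal fibroblast markers was -1.91, with 10 of the 12 lowest in that library, and the median of the 6 oligodendrocyte markers was 0.72. This compares 1 library with 4, and carries no test. The sign of the ELS difference turned without that library for 7 members, Col1a1, Col3a1, Col4a1, Col4a2, Col6a1, Col6a2 and Col8a2, and none of the 7 passed the threshold with or without it.

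**Figure D4:**
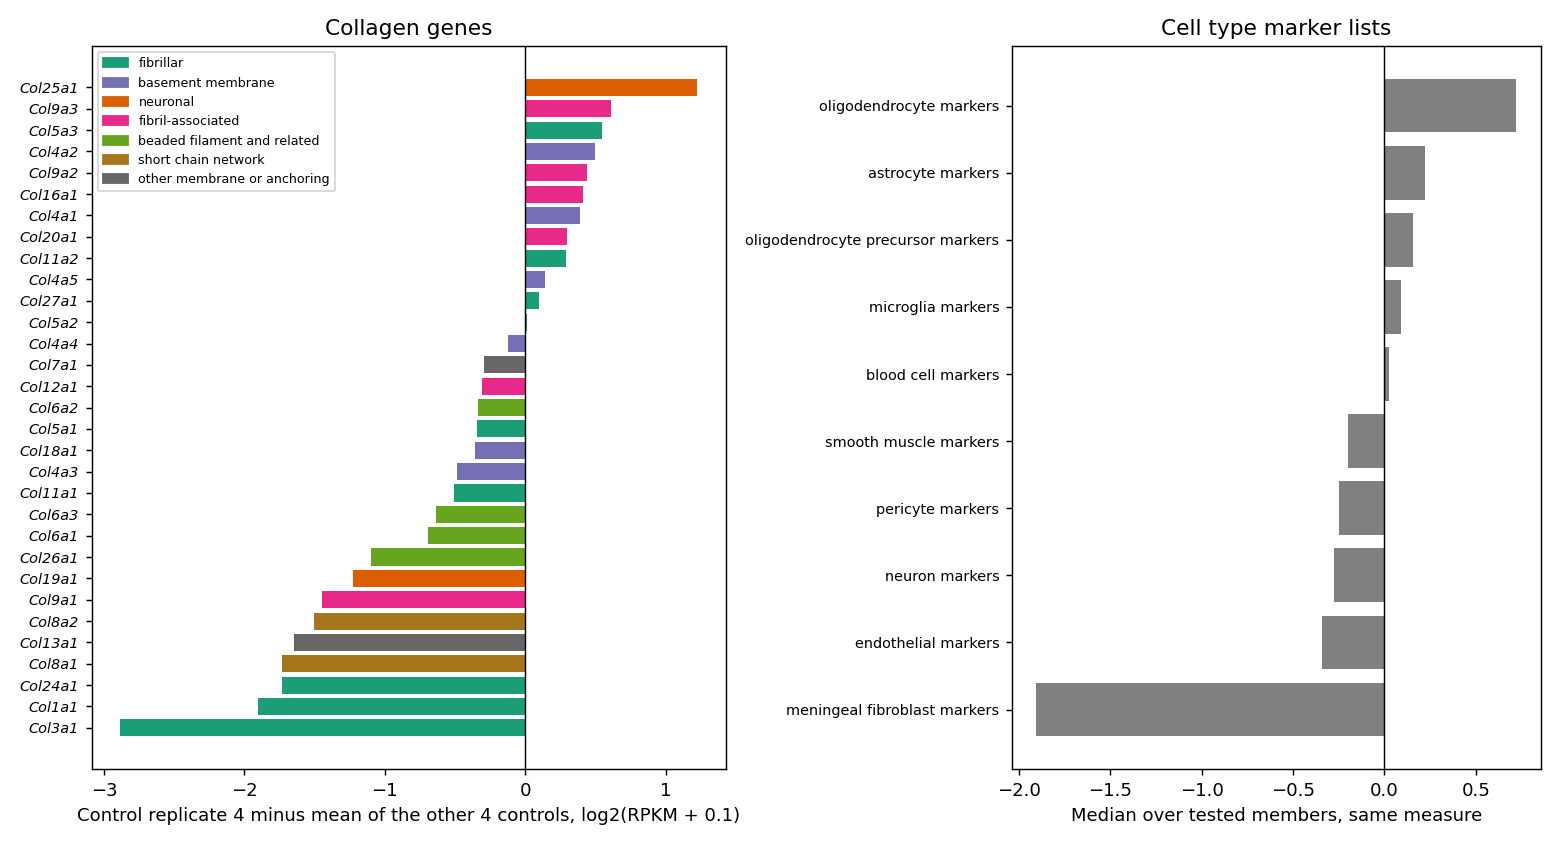
Left, control replicate 4 minus the mean of the other 4 controls (horizontal, log2(RPKM + 0.1) scale) for the 31 tested collagen genes, coloured by class; right, the median of the same measure over the tested members of each cell type marker list with at least 3 of them. Bars run from -2.88 for Col3a1 to 1.22 for Col25a1, and the meningeal fibroblast list has the lowest bar on the right, at -1.91.

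Chains that share a molecule or a type were compared as ratios of RPKM within a library, which removes the library total. The Col4a2 to Col4a1 ratio had the narrowest range of the 11 ratios compared. It was 1.84, 2.10, 1.76, 1.997 and 1.74 in the controls and 1.86, 1.94, 1.80, 2.01 and 1.89 in ELS, so the pair kept its proportion also in control replicate 4, where both chains were highest. Col6a1 exceeded Col6a2 by 2.75 to 4.98 times and Col6a3 by 20.6 to 52.0 times over the 10 libraries, although the proteins of these 3 genes assemble together.

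The ratio of Col5a2 to Col5a1 was 1.43, 1.84, 1.497, 1.95 and 1.36 in the controls and 1.13, 1.25, 1.05, 1.24 and 1.202 in ELS. Every ELS library was below every control, and the means were 1.61 ± 0.26 and 1.17 ± 0.0853 (SD, n = 5 in each group). The difference in the log2 ratio was -0.45 (exact permutation test over 252 assignments, two-sided, p = 0.00794, the smallest it can give). Adjusted over the 11 ratios compared it was 0.0873 and missed the threshold. Among the other 10 ratios, Col9a3 to Col9a1 (p = 0.0238), Col11a2 to Col11a1 (p = 0.0397) and Col8a2 to Col8a1 (p = 0.0476) had the next lowest exact permutation p-values, each 0.131 after adjustment. The Col11a2 to Col11a1 ratio was 5.91 to 7.73 in the controls other than replicate 4, 12.3 in control replicate 4 and 9.59 to 13.3 in ELS. The Col9a3 to Col9a1 ratio was 33.5 in control replicate 4, 4.73 to 7.38 in the other controls and 2.64 to 5.46 in ELS. The Col8a2 to Col8a1 ratio was 5.42, 1.88 to 3.89 and 1.48 to 2.24 in the same order. In control replicate 4 it rested on 8 reads of Col8a1 (0.0828 RPKM). Of the other genomic neighbours, Col9a1 and Col19a1 had log2 fold changes of 0.50 and -1.72 and Col3a1 and Col5a2 differed in how far control replicate 4 was from the other controls (-2.88 and 0.013). The pairs were chosen with the values of the single genes known.

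**Figure D5:**
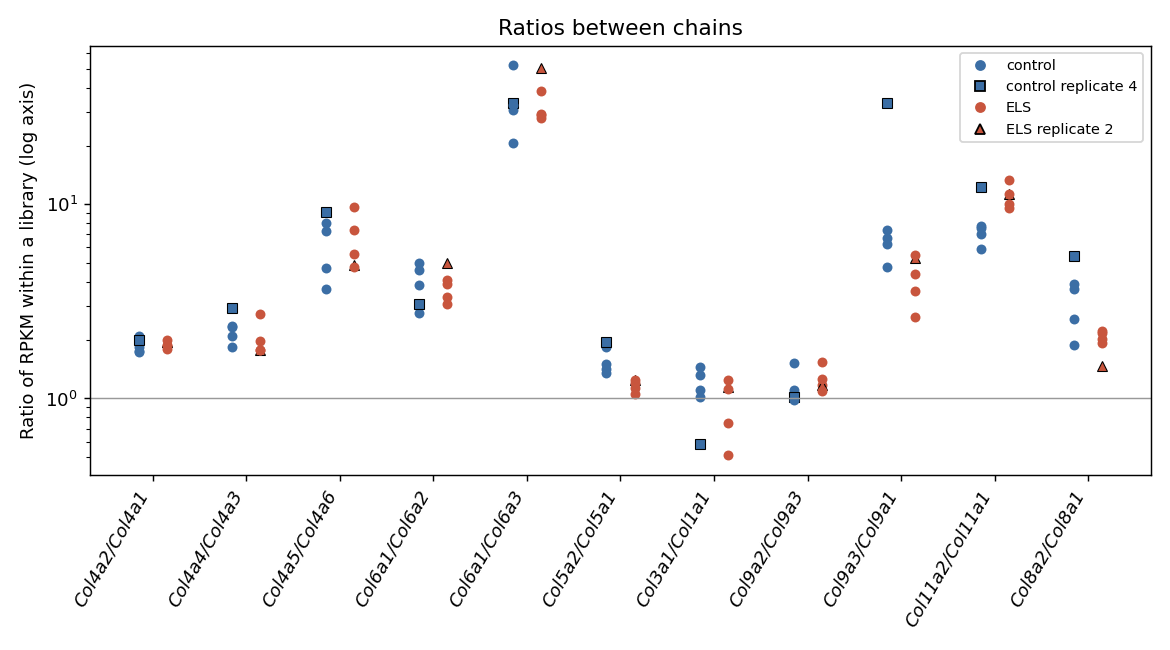
Ratio of RPKM between 2 collagen chains within a library (vertical, log axis) for 11 pairs in control (blue) and ELS (red) libraries, with a square for control replicate 4 and a triangle for ELS replicate 2. The Col4a2 to Col4a1 ratio stays between 1.74 and 2.10, and the Col5a2 to Col5a1 points of the groups do not overlap.

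Genes that modify, secrete, bind and degrade collagen were read from 5 lists. With all 10 libraries weighted equally, 0 of their genes passed the threshold. With quality weights Ddr1, Itga1, Itgb1, Ddr2 and Tll1 passed, all lower in ELS (3.36% lower and 2.55% higher of all genes). Without control replicate 4 and ELS replicate 2, Ddr1, Itga1, Itgb1, Pxdn and Timp1, a metalloproteinase inhibitor, passed as lower (4.12% lower and 3.5% higher of all genes), and without ELS replicate 2 alone only Itga1 did. Timp1 is named after its values were seen. Itga1 and Tll1 reached the abundance floor mainly through the controls. Of 16 tested genes for chain modification and folding, 2 were lower and 1 higher in ELS at an unadjusted p under 0.05, shares near the 10.3% and 10.1% of all genes. The lower ones were Plod2, a lysyl hydroxylase that prepares cross-links, and P3h1, a prolyl hydroxylase. Plod2 was at 1.28, 1.06, 1.002, 0.952 and 0.913 RPKM in control replicates 1 to 5 and 0.736, 0.766, 0.854, 0.843 and 0.796 in ELS replicates 1 to 5. Every ELS library was below every control, as in 2.6% of all genes (difference -0.34 ± 0.13, adjusted p = 0.185). P3h1 had a difference of -0.21 ± 0.082 (adjusted p = 0.189). The higher one was P4ha3, a prolyl hydroxylase subunit, with 0.92 ± 0.41 (adjusted p = 0.236). P4ha3 was at 0.513 RPKM in control replicate 4 and 2.03 to 3.12 in the other controls, and without that library its value was 0.50. The highest by mean, Ppib and P4hb, a prolyl isomerase and a folding enzyme, were at 50.4 and 35.9 RPKM, with adjusted p-values of 0.493 and 0.506.

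Of 12 genes for secretion, trimming and cross-linking, 3 were lower and 1 higher at an unadjusted p under 0.05 (all genes, 10.3% and 10.1%). Tll1, a procollagen-trimming protease, was at 0.632, 1.13, 0.715, 1.02 and 0.603 RPKM in control replicates 1 to 5 and 0.389, 0.495, 0.369, 0.504 and 0.374 in ELS replicates 1 to 5. All ELS libraries were below every control, as in 2.6% of all genes (log2 fold change -0.78 ± 0.21, adjusted p = 0.133). All of them but ELS replicate 4 were under the floor of 0.5 RPKM, so Tll1 was tested mainly through the controls. Pxdn, the peroxidase that cross-links type IV collagen, was at 11.1 RPKM in control replicate 4, 2.68 to 3.83 in the other controls and 1.76 to 2.69 in ELS (log2 fold change -0.93 ± 0.34, adjusted p = 0.178). The value of Pxdn was -0.58 without control replicate 4 and -0.67 without ELS replicate 2 as well (adjusted p = 0.101 and 0.0276). Loxl1, a cross-linking oxidase, had -0.38 ± 0.14 and Mia3, which loads bulky collagens into transport carriers, 0.14 ± 0.054 (adjusted p = 0.184 and 0.187). Bmp1, another procollagen protease and among the 2 most abundant genes of this list at 10.8 RPKM, had an adjusted p of 0.324.

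Of 8 tested collagen receptors, 4 were lower and 0 higher at an unadjusted p under 0.05, against 10.3% lower and 10.1% higher of all genes. Ddr1, a receptor kinase activated by collagen, was at 12.5, 15.3, 13.8, 20.8 and 14.6 RPKM in control replicates 1 to 5 and 10.8, 11.2, 11.01, 9.75 and 10.8 in ELS replicates 1 to 5. All ELS libraries were below every control, as in 2.6% of all genes, and control replicate 4 was highest (log2 fold change -0.50 ± 0.12, adjusted p = 0.133, or 0.0157 without control replicate 4 and ELS replicate 2). Itga1, the integrin chain that binds type IV collagen, was at 1.37, 1.05, 0.568, 0.537 and 0.902 RPKM in control replicates 1 to 5 and 0.269, 0.751, 0.0596, 0.171 and 0.193 in ELS replicates 1 to 5. ELS replicate 2 lay inside the control range and the other ELS libraries lay below every control (log2 fold change -1.50 ± 0.43, adjusted p = 0.133, or 0.0293 without ELS replicate 2). Those other ELS libraries were under the floor of 0.5 RPKM, which Itga1 reached only through the controls and ELS replicate 2. It drew 5 to 117 reads per library. Ddr2, a related receptor kinase named after its values were seen because it is the last of the 4, had a log2 fold change of -0.60 ± 0.19 and Adgrg1, an adhesion receptor that binds type III collagen in the developing cortex, -0.14 ± 0.043 (adjusted p = 0.151 and 0.138). Like Ddr1, Adgrg1 had every ELS library below every control. Itgb1, the partner chain of the collagen-binding integrins, averaged 19.5 ± 1.47 RPKM among controls and 17.8 ± 0.785 under ELS (log2 fold change -0.13 ± 0.058, adjusted p = 0.245). Its adjusted p was 0.0265 without control replicate 4 and ELS replicate 2 and 0.0406 with quality weights, with log2 fold changes of -0.20 and -0.18.

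Of 14 tested basement membrane partners, 1 was lower and 1 higher at an unadjusted p under 0.05, no larger shares than the 10.3% and 10.1% of all genes. The lower one was Sparc, a collagen-binding matrix glycoprotein, with -0.18 ± 0.071 (adjusted p = 0.199), or -0.12 without control replicate 4. The higher one was Agrn, the proteoglycan agrin, with 0.17 ± 0.076 (adjusted p = 0.244). Without control replicate 4, its lowest library, the value of Agrn was 0.097 and its unadjusted p was no longer under 0.05. Of 12 matrix metalloproteinases and inhibitors, Mmp15 was lower with -0.19 ± 0.070 and Mmp17 higher with 0.39 ± 0.16 at an unadjusted p under 0.05 (adjusted p = 0.185 and 0.216), again no larger shares than over all genes (10.3% and 10.1%). Mmp17 was at 7.23 RPKM in control replicate 4 and 11.2 to 14.6 in the other controls, and its value without that library was 0.23. Timp2, the most abundant, was at 51.9 RPKM in control replicate 4, 85.4 to 91.8 in the other controls and 88.2 to 97.5 in ELS. The medians of the 5 lists ran from -0.17 for the receptors to -0.01 for the basement membrane partners, beside 0.0037 for all genes.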

How the data were processed

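RNA-seq covered 10 rats, 5 per group. Per the labels' protocols, total RNA was column-extracted with DNase digestion and libraries came from a stranded mRNA kit. STAR, featureCounts and the build rn6 are named by the submitters' processing notes. Their versions, the annotation release and the strand setting of counting are not given in the sources used, so reads of overlapping or antisense genes may be shared. The authors deposited 1 table of RPKM-type values for 16041 genes (RPKM or FPKM is not stated). Whole reads and library totals were recovered from the RPKM steps for 16015 genes, 100% of those above 0, within 0.002 reads; 71.1% to 73.7% of each total fell in listed genes.

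Genes with at least 0.5 RPKM in 5 libraries (14642) were fitted on log2(RPKM + 0.1) by limma 3.58.1 (R 4.3.3) with trend and robust moderation, two-sided, adjusted over all genes. The procedure was tested on simulated data without a library that stood apart, unlike control replicate 4 here. Alternatives were pseudocounts of 1 and 0.01, no filter or a floor of 1 RPKM, median-of-ratios scaling, limma-voom on recovered reads, sample weights, the replicate number as a block, and leaving out libraries. Members and lists were chosen with earlier results of these data known. Values per library are given for every tested fibrillar, basement membrane and neuronal member, the 2 highest of each class, and members with an unadjusted p under 0.05; of the other lists, the 3 genes of lowest p and the 2 of highest mean were eligible to be named. Symbols come from the table. Promoter windows were matched by symbol and come from RefSeq, build GRCr8, which is not the build of the table.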

Additional observations from a re-analysis of the deposited data

Results flagged for a closer look

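In 7 of 62 groups of 5 libraries (31 members in 2 groups each), 1 library stood so far from the rest that its gap exceeded 0.71 of the group's whole range (Dixon's critical value at the 95% level for 5 samples), where chance flags about 1 group in 20. Among the controls, Col25a1 was at 18.9 RPKM in control replicate 4 against 6.69 to 9.26 in the others, Col4a2 at 18.8 RPKM in the same library against 12.4 to 13.8, and Col4a5 at 2.47 RPKM in control replicate 3 against 2.997 to 3.18. Among the ELS libraries, Col19a1 was at 4.99 RPKM in ELS replicate 2 against 0.499 to 0.843 in the others. Col6a2 was at 6.64 RPKM in ELS replicate 1 against 4.88 to 5.37. Col9a3 was at 2.71 RPKM in ELS replicate 4 against 4.06 to 4.32, and Col11a2 was at 25.7 RPKM in the same library against 29.2 to 30.3.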

How the results depend on the processing

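With all 10 libraries and equal weights, 0 collagen genes passed the threshold with pseudocounts of 1 or 0.01, no filter, a floor of 1 RPKM, median-of-ratios scaling, limma-voom and the replicate block. The count was 3 with sample quality weights and 3 without ELS replicate 2 and control replicate 4, and ran from 0 to 2 when each library was left out. The count of members lower at an unadjusted p under 0.05 ran from 5 to 9 when each library was left out, and that of higher members from 0 to 1. The latter was 0 with median-of-ratios scaling, with sample quality weights, and without ELS replicate 2 and control replicate 4, so the place of Col5a1 on that side rests on the settings. The fibrillar median of -0.07 was -0.257 with sample quality weights and -0.253 without those 2 libraries, and ran from -0.232 to -0.019 over the libraries left out. The basement membrane median ran from -0.153 to -0.096. The neuronal median of -1.06 ran from -1.37 to -0.915, and was -0.399 with no filter, which adds Col23a1, and -0.399 with Col24a1 counted as neuronal. The cause of the moves with weights or fewer libraries was not tested. Same-numbered control and ELS libraries did not deviate together (correlations from -0.08 to 0.07), and the labels do not say that the numbers pair the samples. Such correlations cannot exclude a shared litter behind the numbers. With the replicate number as a block, 0 members passed and 6 were lower at an unadjusted p under 0.05. Depth limits the rarest members most, with Col8a1 at 8 to 66 reads and Col26a1 at 15 to 46 reads per library.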
